A study of Mus musculus with 7 samples.

Results

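The genes described here encode splicing factors and small nuclear ribonucleoprotein (snRNP) proteins. They were chosen by name, as the protein-coding RefSeq genes of mouse genome build GRCm38 whose symbols start with Srsf, Hnrnp, Snrp, Sf3a, Sf3b or Lsm. The rule uses no measured value, but the set was chosen with earlier results of these data known. The rule gave 68 of 21887 protein-coding genes on chromosomes 1 to 19, X and Y. There were 11 Srsf, 21 Hnrnp, 12 Snrp, 3 Sf3a, 6 Sf3b and 15 Lsm genes. The prefix also takes in Lsmem1 and Lsmem2, which encode membrane proteins with no known place in a snRNP, and Hnrnpa1l2-ps2, which carries a pseudogene symbol. They were kept because the rule is a rule on names.

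LEF1 (gene Lef1) and TCF1 (gene Tcf7), a related pair of HMG-box transcription factors, were mapped by CUT&RUN, in which an antibody brings a nuclease to the protein it binds and the cut fragments are sequenced. All groups were wild-type mouse spleen CD8 T cells with the transgenic P14 T cell receptor. The cells of the 3 LEF1 and the 3 TCF1 libraries were sorted as CD8+, Ly5.1+, CD44- and CD62L+, the surface profile of naive cells. A labelled input control came from a different gate (CD8+, Ly5.1-, CD44+), and no peak list of it was analysed here. The lists held 27666, 37646 and 23704 distinct peaks in LEF1 replicates 1, 2 and 3, and 25623, 22901 and 11423 in TCF1 replicates 1, 2 and 3. Peaks were called in each library separately, and read totals are not in the lists, so the depth is unknown. Whether each replicate is another animal is not in the labels, so any p-value here measures how far libraries differ, which may be only technical. Peak lists carry no expression, and the labelled cell type was not checked against marker genes.

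Introns are removed from pre-mRNA by the spliceosome, which is built from snRNPs. Each spliceosomal snRNP has a small nuclear RNA with a ring of Sm proteins (Snrp genes) or, on U6, of Sm-like proteins (Lsm genes), and the SF3A and SF3B complexes belong to the U2 snRNP, which holds the branch site. SR proteins (Srsf genes) and hnRNP proteins (Hnrnp genes) bind pre-mRNA and favour or oppose the use of splice sites. In T cells the family is known above all for Hnrnpll and Hnrnpl, which act on the variable exons of Ptprc, the gene of the CD45 phosphatase.

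The promoters printed below are those that the peak positions described further on refer to: members with peaks in all libraries, strong ones (Snrpe, Hnrnpa1, Hnrnpf, Snrpg) and a middling one (Sf3a3), one whose LEF1 and TCF1 summits lay apart (Sf3b1), and one without a peak (Snrpb2). They were picked with these values known. Each is the RefSeq GRCm38.p6 sequence from 250 bases before to 50 after an annotated start, written 5′ to 3′ on the strand of the gene. Capitals mark the letters TTTGAT or TTTGAA or CTTTGA (TCF/LEF motif cores) and CCGGAAG (ETS family motif core), on either strand, so that they can also read ATCAAA or TTCAAA or TCAAAG, and CTTCCGG for ETS. CTTTGA overlaps TTTGAA or TTTGAT wherever it is followed by A or T.
Snrpe, chr1:133610231-133610530, minus strand: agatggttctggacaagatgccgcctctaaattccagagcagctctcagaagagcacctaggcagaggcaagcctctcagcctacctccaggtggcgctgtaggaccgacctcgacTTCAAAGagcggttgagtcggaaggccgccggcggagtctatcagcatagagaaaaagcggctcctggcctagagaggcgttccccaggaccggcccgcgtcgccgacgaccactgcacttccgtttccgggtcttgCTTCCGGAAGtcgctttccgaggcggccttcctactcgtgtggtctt
Hnrnpa1, chr15:103240147-103240446, plus strand: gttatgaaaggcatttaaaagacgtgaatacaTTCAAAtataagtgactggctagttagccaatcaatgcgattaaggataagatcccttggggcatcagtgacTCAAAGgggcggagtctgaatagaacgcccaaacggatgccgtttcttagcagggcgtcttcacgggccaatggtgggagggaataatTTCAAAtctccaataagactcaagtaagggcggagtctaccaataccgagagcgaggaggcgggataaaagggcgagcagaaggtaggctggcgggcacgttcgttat
Hnrnpf, chr6:117900090-117900389, plus strand: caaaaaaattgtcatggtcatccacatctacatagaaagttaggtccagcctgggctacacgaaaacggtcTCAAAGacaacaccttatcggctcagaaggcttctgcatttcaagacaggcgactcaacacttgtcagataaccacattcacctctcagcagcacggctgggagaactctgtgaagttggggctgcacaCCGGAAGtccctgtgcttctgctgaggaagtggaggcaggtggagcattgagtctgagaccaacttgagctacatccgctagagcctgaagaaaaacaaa
Snrpg, chr6:86371290-86371589, plus strand: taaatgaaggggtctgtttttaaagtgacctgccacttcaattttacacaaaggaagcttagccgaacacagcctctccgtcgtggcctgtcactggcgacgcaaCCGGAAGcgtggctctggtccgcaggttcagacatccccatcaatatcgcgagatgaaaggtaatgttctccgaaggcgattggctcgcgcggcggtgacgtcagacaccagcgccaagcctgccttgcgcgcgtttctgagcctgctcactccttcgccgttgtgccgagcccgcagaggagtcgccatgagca
Sf3a3, chr4:124714611-124714910, plus strand: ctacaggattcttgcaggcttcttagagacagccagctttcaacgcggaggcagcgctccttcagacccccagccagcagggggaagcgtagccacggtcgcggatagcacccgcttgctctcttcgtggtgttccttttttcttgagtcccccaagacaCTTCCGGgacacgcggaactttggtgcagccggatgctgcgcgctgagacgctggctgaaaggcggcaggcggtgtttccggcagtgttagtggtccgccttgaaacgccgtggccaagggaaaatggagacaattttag
Sf3b1, chr1:55027429-55027728, minus strand: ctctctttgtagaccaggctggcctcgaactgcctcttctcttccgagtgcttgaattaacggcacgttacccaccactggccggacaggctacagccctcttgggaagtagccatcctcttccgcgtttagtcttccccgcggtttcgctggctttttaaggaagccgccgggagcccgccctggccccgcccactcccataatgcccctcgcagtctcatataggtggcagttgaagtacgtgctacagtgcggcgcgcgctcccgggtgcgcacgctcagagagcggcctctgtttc
Snrpb2, chr2:143062819-143063118, plus strand: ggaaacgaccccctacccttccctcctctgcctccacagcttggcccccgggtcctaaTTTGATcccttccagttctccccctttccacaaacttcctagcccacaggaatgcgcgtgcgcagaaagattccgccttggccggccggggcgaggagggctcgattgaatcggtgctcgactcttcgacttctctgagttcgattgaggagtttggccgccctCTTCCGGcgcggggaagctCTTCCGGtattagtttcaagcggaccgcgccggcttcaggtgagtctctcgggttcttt

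The Snrpe promoter holds TTTGAA and CTTTGA as one overlapping match on the minus orientation, at positions -134 to -128 from the start, and ETS letters on both orientations just after the start. Hnrnpa1 holds 3 TCF/LEF matches, and Hnrnpf holds 1 TCF/LEF and 1 ETS match. Snrpg and Sf3a3 hold 1 ETS match each and no TCF/LEF match. Sf3b1 holds neither. Snrpb2, at which no library had a peak, holds TTTGAT and a pair of ETS matches.

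Peaks of both factors lay at the ends of most of these genes. A gene-end peak is a peak interval that comes within 1 kb of either end of the gene. LEF1 replicates 1, 2 and 3 had one at 52, 61 and 46 of the 68 genes (76.5%, 89.7% and 67.6%), where 32.2%, 38.9% and 29.5% of all protein-coding genes had one. TCF1 replicates 1, 2 and 3 had one at 58, 58 and 37 (85.3%, 85.3% and 54.4%), against 35.8%, 32.8% and 19.0% of all genes. The mean was 53.0 ± 7.55 genes for LEF1 and 51.0 ± 12.1 for TCF1 (SD, n = 3 each), and the ranges of both factors overlapped. The lowest count came from TCF1 replicate 3, the shortest list.

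**Figure D1:**
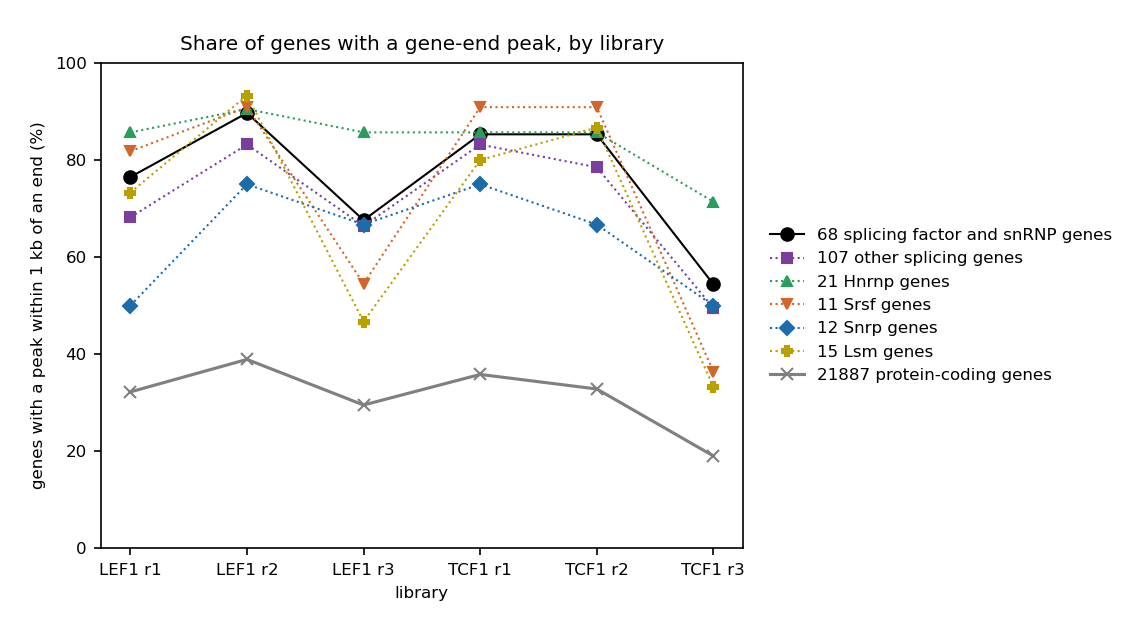
Percent of genes with a peak within 1 kb of a gene end (y axis) in each library (x axis), for the 68 splicing factor and snRNP genes, 4 of their families, 107 other splicing genes and all 21887 protein-coding genes. Each point is 1 library and lines only join points of a list; the 68 genes sit between 54.4% and 89.7% and all genes between 19.0% and 38.9%.

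A factor was taken to hold a gene when at least 2 of its 3 libraries had a gene-end peak there. LEF1 held 55 of the 68 genes (80.9%, against 33.0% of all genes) and TCF1 held 57 (83.8%, against 32.1%). Both factors held 54 (79.4%, against 29.9%). All 6 libraries had a peak at 36 genes (52.9%, against 18.6%), and at least 1 library had one at 61 (89.7%, against 40.8%). Only Lsm10 was held by LEF1 and not by TCF1, where the share among all genes was 3.11%. Lsm6, Sf3b3 and Srsf4 were held by TCF1 and not by LEF1, where it was 2.17%. After presence in all 6 libraries, the commonest pattern was presence in replicates 1 and 2 of each factor and in neither replicate 3, at 8 genes (11.8%, against 1.92% of all genes). Absence from all libraries followed at 7 genes (10.3%, against 59.2%). Absence from TCF1 replicate 3 alone, at 6 genes, was at the background share (8.82%, against 8.61%).

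The families differed in how often and how strongly they were marked. Peak strength is the authors' fold enrichment, the signal at a peak over its local background, and it was used to rank the peaks of a list, so that a rank percentile near 0 is the top of the list and one near 100 the bottom. Hnrnp genes had a gene-end peak in all 6 libraries at 15 of 21, Snrp genes at 6 of 12 and Sf3b genes at 4 of 6. Sf3a genes did so at 2 of 3, Lsm genes at 5 of 15 and Srsf genes at 4 of 11. Of all genes, 18.6% did so. The mean rank percentile of a gene was taken over the libraries with a gene-end peak, so genes without one have none. Its median was 29.9 over 9 Snrp, 33.0 over 19 Hnrnp and 41.8 over 6 Sf3b genes. It was 49.2 over 3 Sf3a, 68.4 over 14 Lsm and 68.9 over 10 Srsf genes. Over the 61 members with a gene-end peak it was 50.7, and over the 8925 genes with one in all it was 55.0. These medians are descriptions of the lists and no test was run on them. Of the 36 members with a peak in all 6 libraries, 8 had a mean rank percentile under 10 (22.2%, against 14.4% of the genes with a peak in all 6 libraries), namely 5 Hnrnp and 3 Snrp genes.

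**Figure D2:**
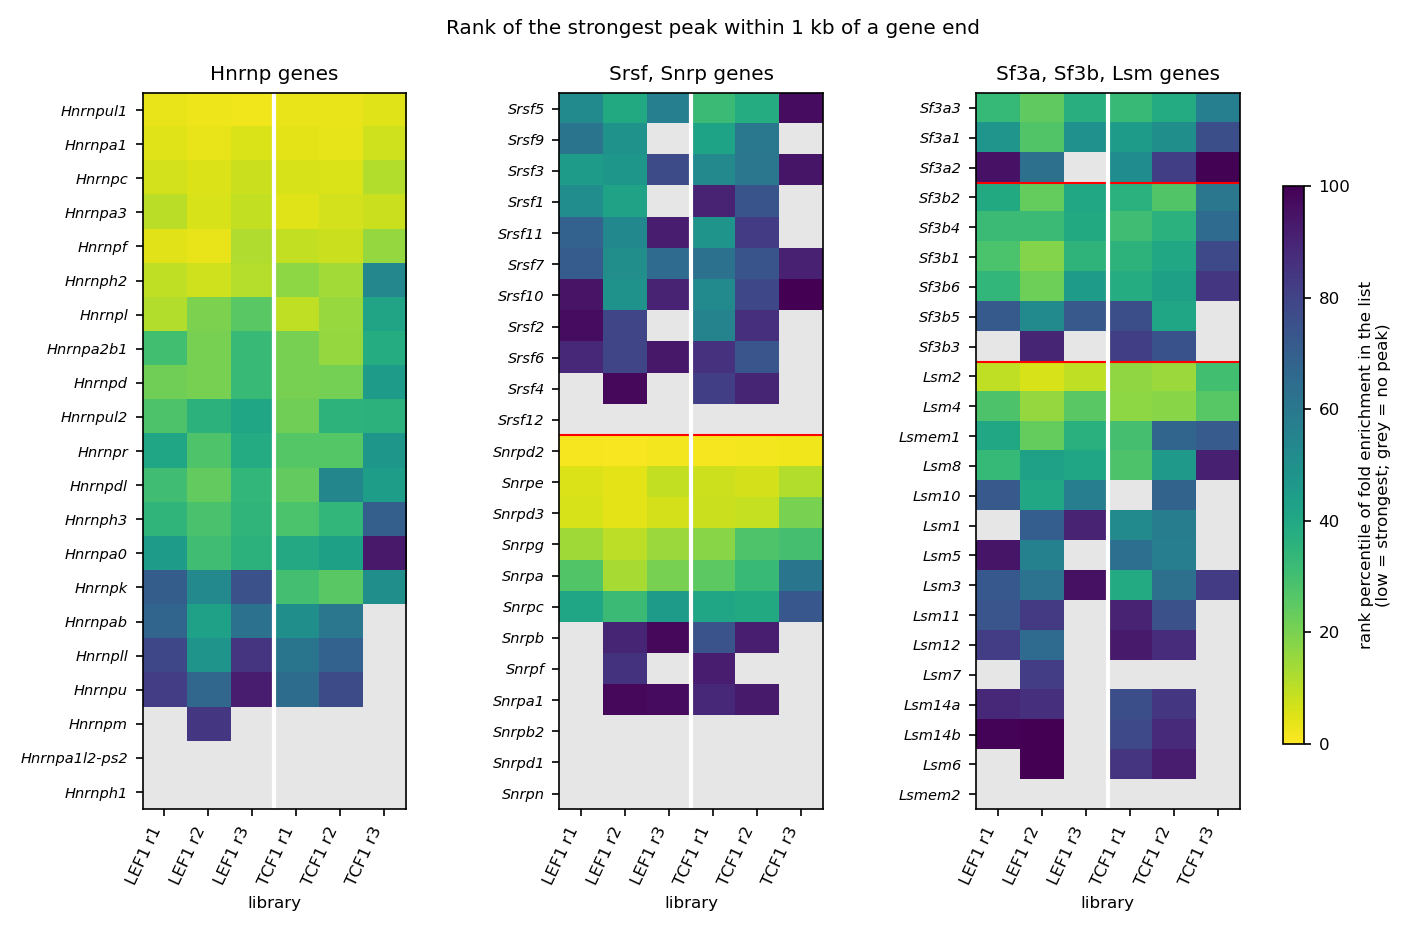
Rank percentile, within each library, of the strongest peak within 1 kb of a gene end (colour; 0 is the strongest peak of the list, grey means no peak) for each of the 68 genes (rows, by family) in the 6 libraries (columns; r1 to r3 are replicates 1 to 3, a white line parts LEF1 from TCF1 and red lines part families). The rows of Snrpd2, Hnrnpul1 and Hnrnpa1 are at the top of every list, and no Srsf row reaches a mean below 52.6.

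The Sm proteins form the ring on the U1, U2, U4 and U5 RNAs. Snrpd2, an Sm protein gene, had the strongest gene-end peak of the whole set, with a fold enrichment of 72.5, 100.3 and 63.5 in LEF1 replicates 1, 2 and 3 and of 75.1, 64.5 and 41.0 in TCF1 replicates 1, 2 and 3. The merged peak lay at chr7:19148985-19149887 and its mean rank percentile was 1.52. The gene Qpctl ends 249 bp from Snrpd2, so the peak belongs to both genes alike. Snrpe, another Sm gene, had values of 44.4, 60.0 and 32.0 for LEF1 and 37.9, 39.5 and 21.5 for TCF1, at chr1:133610041-133610665. Its groups overlapped, with TCF1 replicate 3 lowest.

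Snrpd3 (Sm protein D3) had its strongest gene-end peak beyond its 3′ end, at chr10:75535979-75536600, with 41.6, 60.5 and 37.3 for LEF1 and 37.3, 33.4 and 16.2 for TCF1. A weaker peak at its start, chr10:75517260-75518219, reached 15.1, 21.5 and 13.5 for LEF1 and 18.8, 17.0 and 9.92 for TCF1. The start peak is shared with Gucd1, whose end lies 70 bp away. Snrpg (Sm protein G) had 26.8, 38.3 and 24.1 for LEF1 and 23.8, 17.5 and 13.3 for TCF1. Snrpa, the U1 snRNP A protein gene, had 17.7, 32.3 and 20.2 for LEF1 and 18.9, 15.5 and 8.29 for TCF1. In all 3 genes LEF1 replicate 2 was highest and TCF1 replicate 3 lowest.

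Other Snrp genes were weakly marked or not at all. Snrpb, which encodes the Sm proteins B and B′, had no peak in LEF1 replicate 1 and TCF1 replicate 3, values of 5.49 and 4.45 in LEF1 replicates 2 and 3, and values of 7.19 and 5.37 in TCF1 replicates 1 and 2. Snrpf had a peak in LEF1 replicate 2 (5.96) and TCF1 replicate 1 (5.13) only. Snrpd1 had no gene-end peak and its nearest region lay 6898 bp away. Snrpb2, the gene of the U2 snRNP B″ protein, which is not part of the Sm ring, had no peak in any library within its body and 10 kb on each side. Snrpn, the imprinted Sm gene best known from neurons, had none either, over an annotated length of 467683 bp. The genes of the Sm ring were thus not uniformly marked, with Snrpd2 at the top of every list and Snrpd1 without a gene-end peak.

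Among the Lsm genes, Lsm2, part of the ring on U6, stood first with 33.0, 49.8 and 30.7 for LEF1 and 25.1, 25.4 and 13.2 for TCF1. The near edge of its strongest peak, chr17:34980553-34981329, was 525 bp upstream of the annotated start. The summits lay farther upstream, at -1072, -1052 and -909 bp for LEF1 and at -1044, -1033 and -942 bp for TCF1. In replicates 1 and 2 of each factor the summit was thus outside the 1 kb window. A second and weaker region covered the start itself. Lsm4, of the same ring, had 17.5, 28.7 and 17.4 for LEF1 and 24.7, 23.1 and 14.3 for TCF1. The remaining genes of that ring were lower, and Lsm7 had a peak in LEF1 replicate 2 alone (6.37). Lsm1, which takes the place of Lsm8 in the cytoplasmic ring of mRNA decay, had 7.87 and 5.43 in LEF1 replicates 2 and 3 and 10.5 and 9.61 in TCF1 replicates 1 and 2. Lsm10, a U7 snRNP gene for histone mRNA 3′ ends, had 7.49, 14.1 and 9.28 for LEF1 and a single TCF1 value of 8.12 in replicate 2. Lsm6 had 3.26 in LEF1 replicate 2, the very bottom of that list, and 6.01 and 5.35 in TCF1 replicates 1 and 2. Lsmem1, 1 of the membrane protein genes, had 13.1, 21.8 and 13.5 for LEF1 and 16.8, 8.23 and 7.30 for TCF1, and Lsmem2 had no gene-end peak.

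The SF3A and SF3B genes had a gene-end peak in at least 1 library at all 9 genes, where 40.8% of all genes had one. Sf3a3 had 15.3, 21.3 and 13.4 for LEF1 and 15.5, 13.6 and 8.73 for TCF1. Sf3a1 had 11.2, 19.7 and 10.5 for LEF1 and 12.0, 11.0 and 6.87 for TCF1. Sf3a2 was weaker, with 4.83 and 8.97 in LEF1 replicates 1 and 2 and 10.7, 6.54 and 3.84 for TCF1. Sf3b1, which encodes the branch site subunit that recurs among mutated genes of blood cancers, had 17.1, 25.8 and 14 for LEF1 and 14.6, 13.2 and 6.69 for TCF1. Sf3b2 had 13.3, 22.0 and 12.5 for LEF1 and 14.4, 17.5 and 8.37 for TCF1. Sf3b3 had 5.49 in LEF1 replicate 2 only, and 6.37 and 7.31 in TCF1 replicates 1 and 2. The SF3 genes thus sat mostly in the middle or lower part of the lists, and none had a mean rank percentile below 37.2.

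The SR protein genes were marked often and weakly. Srsf5 led the family with 10.3, 14.4 and 9.35 for LEF1 and 15.9, 13.6 and 4.68 for TCF1. Srsf3, which encodes a small SR protein, had 11.9, 12.1 and 6.85 for LEF1 and 10.3, 9.22 and 4.99 for TCF1. Srsf7 had 7.64, 11.4 and 8.19 for LEF1 and 8.67, 7.38 and 5.40 for TCF1, with Gemin6, a gene of the Sm ring assembly machinery, 135 bp away. These genes had peaks in all 6 libraries, and TCF1 replicate 3 was lowest in each.

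Srsf1, the classical splicing enhancer protein, had 10.6 and 13.4 in LEF1 replicates 1 and 2 and 5.34 and 7.38 in TCF1 replicates 1 and 2. The LEF1 values came from a region beyond the 3′ end, and the TCF1 values from one inside the gene near its start. LEF1 replicate 2 also had a weaker peak in that start region (5.98). Srsf2, known as SC35, had 4.65 and 6.71 in LEF1 replicates 1 and 2 and 9.94 and 6.01 in TCF1 replicates 1 and 2. Srsf4 had 4.35 in LEF1 replicate 2 and 6.38 and 5.62 in TCF1 replicates 1 and 2. Neither replicate 3 had a gene-end peak at these 3 genes. Srsf12 had none in any library, and its nearest region lay 5740 bp inside the gene.

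The Hnrnp genes, the largest family, had the most strong peaks by number but not by share. Of those with a peak in all 6 libraries, 5 of 15 Hnrnp and 3 of 6 Snrp genes had a mean rank percentile under 10. Among all genes with a peak in all 6 libraries the share was 14.4%. Hnrnpul1, of the hnRNP U-like group, had 52.6, 71.5 and 57.7 for LEF1 and 54.5, 50.8 and 30.3 for TCF1. That peak is shared with Axl, whose end lies 232 bp away. Hnrnpa1, a splicing silencer protein gene, had 46.1, 64.3 and 39.5 for LEF1 and 49.0, 48.6 and 26.5 for TCF1, at chr15:103239361-103241252. Hnrnpc, whose protein binds uridine tracts, had 38.9, 53.9 and 33.7 for LEF1 and 42.0, 41.7 and 21.4 for TCF1. Their mean rank percentiles were 3.25, 4.83 and 7.29, and the groups overlapped in each. Hnrnpa3 followed with 31.9, 49.2 and 31.5 for LEF1 and 46.0, 38.5 and 24.8 for TCF1. Hnrnpf, whose protein binds guanine tracts, had 46.7, 64.0 and 27.7 for LEF1 and 34.7, 35.4 and 18.4 for TCF1.

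A middle group had peaks in all libraries at lower ranks. Hnrnpl had 30.4, 24.8 and 17.4 for LEF1 and 34.2, 24.9 and 10.9 for TCF1. Hnrnpa2b1 had 16.4, 24.3 and 14.9 for LEF1 and 21.7, 24.5 and 11.5 for TCF1. Hnrnpd, the AUF1 gene of AU-rich element decay, had 20.6, 24.1 and 14.8 for LEF1 and 21.8, 20.8 and 10.3 for TCF1. All 3 had overlapping groups. The CD45 regulator Hnrnpll was lower than its paralog Hnrnpl in each library, with 6.80, 11.8 and 5.96 for LEF1, 8.91 and 8.07 in TCF1 replicates 1 and 2 and no peak in TCF1 replicate 3. Hnrnpu had 6.39, 8.40 and 5.22 for LEF1 and 8.46 and 7.04 in TCF1 replicates 1 and 2. Hnrnpm had a peak in LEF1 replicate 2 alone (6.15).

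**Figure D3:**
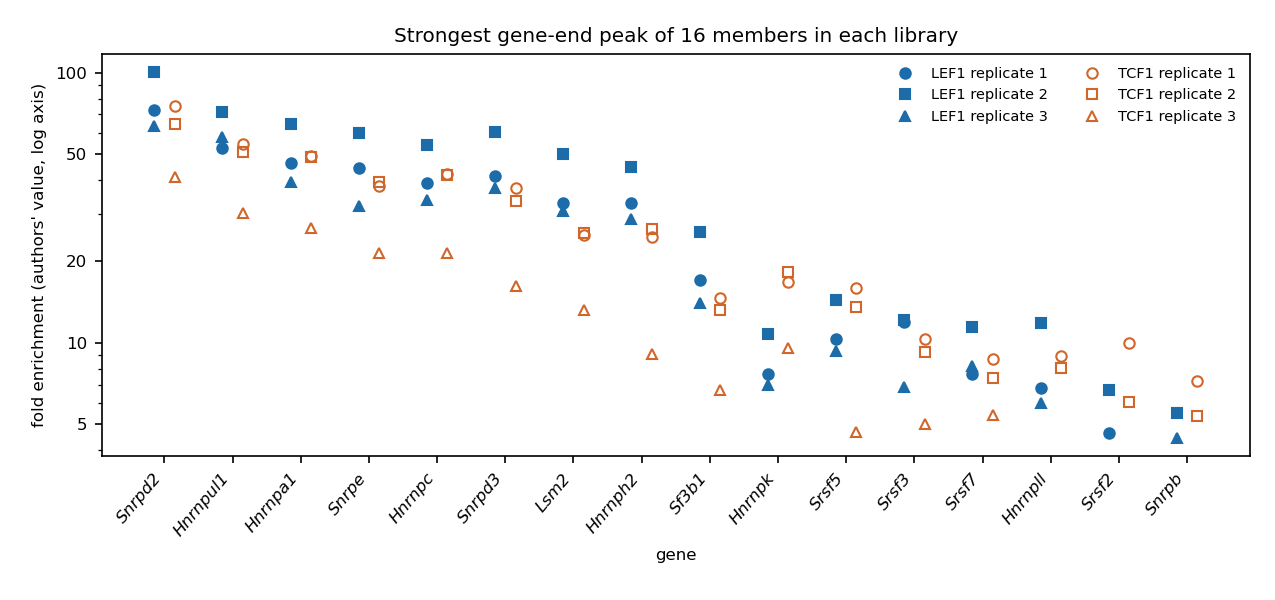
Fold enrichment of the strongest gene-end peak, as deposited by the authors (y axis, log scale), for 16 of the 68 genes (x axis) in each library; filled blue symbols are the LEF1 and open orange symbols the TCF1 replicates, and a missing symbol means no peak. LEF1 replicate 2 is the highest LEF1 value throughout and TCF1 replicate 3 the lowest TCF1 value wherever it has a peak among these 16 genes. At Hnrnpk the TCF1 libraries reach 18.3 and LEF1 replicate 2 reaches 10.8.

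Some regions lay close to the 1 kb limit. Just within it were a TCF1 peak inside Hnrnpa2b1, 880 bp from its end, a region 903 bp inside Srsf3 and one 928 bp inside Sf3b1. Just outside were regions 1036 bp from the end of Hnrnph3, 1048 bp from that of Hnrnph1 and 1112 bp from that of Lsm14a. Of these genes only Hnrnph1 was left without any gene-end peak by the limit, and it is counted as having none. The other 5 had another region over an end. At Lsm14a that region was in 4 libraries, with neither replicate 3 among them. The region just outside the limit was in all 6 and stronger, at 7.88 to 24.5 against 5.64 to 6.98. The limit thus kept Lsm14a out of the genes marked in all 6 libraries. The Hnrnph1 region chr11:50376305-50377990 was present in all 6 libraries, with 26.1, 43.6 and 24.1 for LEF1 and 25.1, 22.0 and 10.9 for TCF1. It covered annotated starts that lie inside the outer limits of the gene.

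Starts were examined in a RefSeq promoter table that holds 59 of the 68 genes and 17492 genes in all, and whose starts need not be the outer end of a gene. Both factors held a peak within 1 kb of a start at 46 of the 59 (78.0%, against 31.6% of all genes in the table), and all 6 libraries had one at 34 (57.6%, against 19.8%). At 3 of the 59 (5.08%, against 3.09%) both factors held a peak at the 3′ end that was near no start, namely Hnrnpa0, Snrpd3 and Sf3b2. The median summit of the strongest start peak lay at -132 to -108 bp from the start in the members, by library, and at -107 to -81 bp in all genes, where negative is upstream. The share of summits within 250 bp was 71.4% to 78.4% in the members and 72.3% to 78.7% in all genes.

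Some summits fell at nearly the same base in every library. The Hnrnpf summit lay at -39 bp in all 6 libraries. The Hnrnph2 summit lay at -137 bp in 5 libraries and at -129 bp in TCF1 replicate 3. The Snrpe summit lay at -145, -139 and -142 bp for LEF1 and at -145, -143 and -154 bp for TCF1. Such agreement was not particular to these genes. The 6 summits fell within 50 bp at 15 of the 34 members (44.1%) and at 46.6% of the 3459 genes with a start peak in all libraries, with median spans of 94 and 56 bp.

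At Sf3b1 the summits of the factors lay apart. LEF1 summits were at -67 bp in all 3 libraries, and TCF1 summits at 31, 31 and 16 bp downstream of the start. The groups did not overlap, as was the case with LEF1 upstream at 8.56% of all genes tested. At Hnrnpk the order was the other way, with LEF1 summits at -123, -188 and -209 bp and TCF1 summits at -269, -282 and -230 bp, a pattern found at 4.54% of all genes. With 3 libraries against 3, an exact two-sided permutation test cannot give a p below 0.1, and shares near the background are not a result about these genes.

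**Figure D4:**
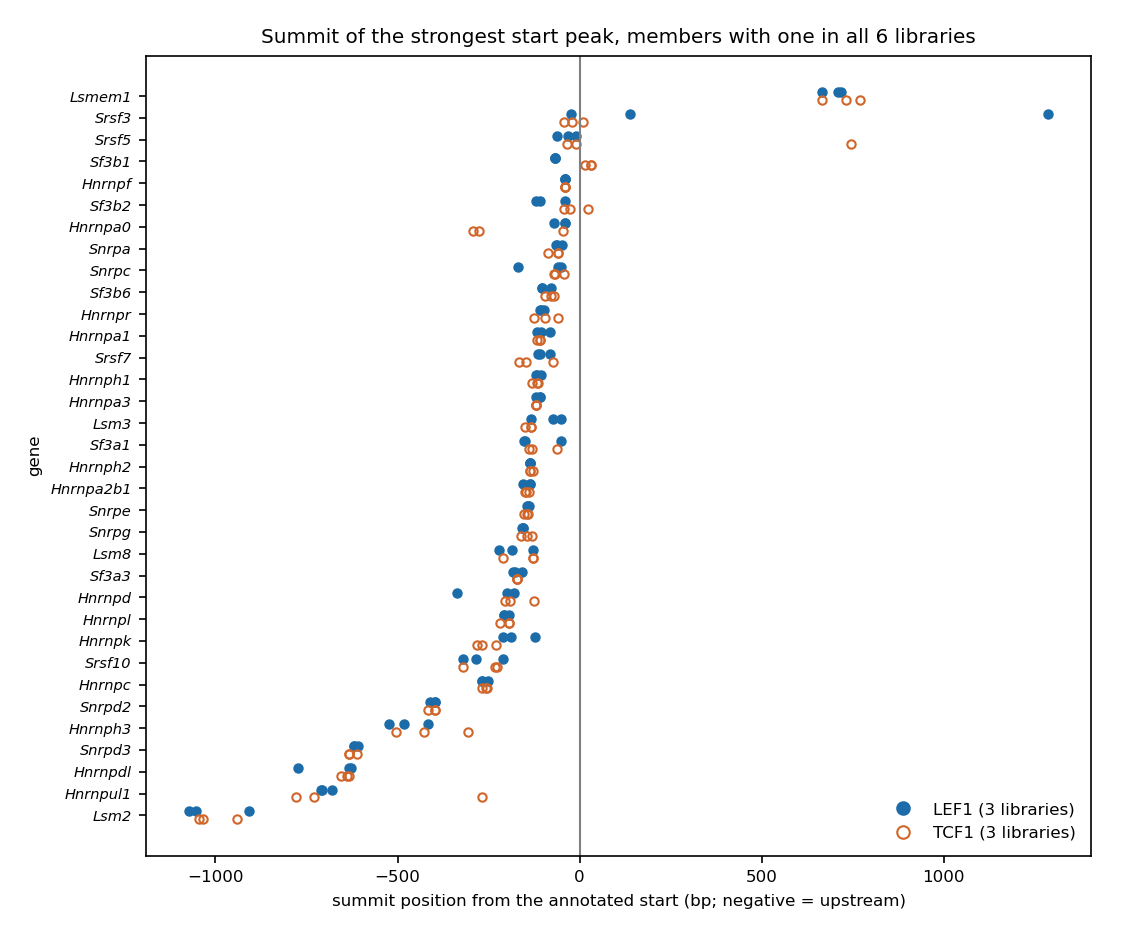
Summit position of the strongest start peak relative to the annotated start (x axis, bp, negative is upstream) for the 34 genes (y axis) with a start peak in all 6 libraries; filled blue points are LEF1 and open orange points TCF1 libraries. Hnrnpf has all 6 summits at -39 bp, and at Sf3b1 the LEF1 points lie at -67 bp and the TCF1 points 16 to 31 bp downstream.

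TCF/LEF motif letters were not more frequent in the promoters of these genes. Of 78 promoters of the 59 genes, 25.6% held TTTGAT or TTTGAA or CTTTGA on either strand, against 28.9% of 21263 promoters in the table. TTTGAT was in 5 of the 78 and 2134 of the 21263, TTTGAA in 15.4% against 16.0%, and CTTTGA in 7.69% against 14.4%. The longer CTTTGAT was in 1.28% against 3.22%. The ETS letters CCGGAAG were in 28.2% against 11.6%. The member promoters had a median GC content of 61.0%, against 56.3% in all promoters, and its part in these shares was not tested.

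The presence of a peak did not go with the TCF/LEF letters. Both factors held a start peak at 12 of 16 members with such a match (75.0%) and at 34 of 43 without one (79.1%). Over all genes in the table these shares were 27.4% and 33.6%. With and without an ETS match, the shares were 14 of 17 (82.4%) and 32 of 42 (76.2%) in the members and 58.4% and 27.6% in all genes. Among genes with a gene-end peak, the median of the mean rank percentile was 26.3 with a TCF/LEF match (13 members) and 51.7 without (40 members), and 48.5 and 56.5 in all genes. These are descriptions, and a match is not a binding site.

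In the printed promoters the distance from match to summit can be read for single genes. The TTTGAA letters of Snrpe were centred 7.5 to 22.5 bp from the summit across the 6 libraries, and its ETS letters 145 to 163 bp. The ETS letters of Hnrnpf were 8 bp from the summit in each library, and its TCF/LEF letters 138 bp. The ETS letters of Snrpg were 3 to 20 bp from the summit, and those of Sf3a3 71 to 96 bp. The CTTTGA letters of Hnrnpa1 were 27.5 to 63.5 bp away, and its TTTGAA matches 99.5 to 136 bp and 24.5 to 60.5 bp. Sf3b1 had peaks of both factors over a window with neither motif, and Snrpb2 had both motifs and no peak.

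Beyond the gene ends, the window of the gene body with 10 kb on each side held a peak at 58, 65 and 56 members in LEF1 replicates 1, 2 and 3 (background 52.0%, 58.4% and 48.8% of all genes) and at 63, 63 and 48 in TCF1 replicates 1, 2 and 3 (background 53.3%, 50.9% and 34.2%). Both factors held it at 59 members (86.8%, against 48.6%) and all 6 libraries at 46 (67.6%, against 33.9%). No library had a peak there at 3 members, Snrpb2, Snrpn and Hnrnpa1l2-ps2, where the share of all genes was 40.6%. The mean number of distinct intervals per member was 1.71, 2.31 and 1.49 for LEF1 and 1.76, 1.63 and 1.01 for TCF1, against 1.35, 1.82 and 1.16 and 1.29, 1.16 and 0.585 per gene in all. The members were shorter, with a median length of 10.4 kb against 17.2 kb.

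Merged over the libraries these intervals made 157 regions, 80 at gene ends, 28 inside a gene and 49 in the flanks. Peaks in all 6 libraries were found in 40 of the 80 at gene ends, 4 of the 28 inside and 19 of the 49 in the flanks. LEF1 and not TCF1 held 6, 7 and 9 of them, and TCF1 and not LEF1 held 6, 1 and 2. The same shares over the regions of all genes were not counted. The LEF1 lists were longer on average (29700 against 20000 peaks), so these counts are not a result about these genes. Hnrnpl had the most intervals, 9, 10 and 9 for LEF1 and 9, 6 and 4 for TCF1. Hnrnpf had 6, 9 and 6 for LEF1 and 5, 6 and 4 for TCF1.

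Several members had a stronger peak away from the gene than at its ends. At Srsf10, a splicing repressor gene, the gene-end values were 4.95, 11.7 and 5.41 for LEF1 and 10.5, 6.94 and 3.74 for TCF1. A region 6464 bp beyond its 3′ end, chr4:135876372-135877126, reached 43.5, 60.2 and 33.5 for LEF1 and 38.9, 37.2 and 18.6 for TCF1. It lay 2526 bp from Pnrc2. At Hnrnpl a region 8022 bp upstream, chr7:28799718-28800524, reached 38.2, 58.3 and 36.6 for LEF1 and 35.5, 34.2 and 15.5 for TCF1, and lay 753 bp from Rinl. At Srsf2 a region 6190 bp away reached 22.1, 29.3 and 19.5 for LEF1 and 33.2, 31.0 and 15.9 for TCF1, and overlapped Mettl23. Such regions stood closer to a neighbouring gene than to the splicing gene, and the lists do not say which gene a region acts on.

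Hnrnpf and Lsm10 had strong flank regions too. The Hnrnpf region chr6:117890021-117890854, 9486 bp upstream, reached 36.0, 49.6 and 33.5 for LEF1 and 35.3, 33.0 and 16.6 for TCF1, and was closer to Hnrnpf than to any other protein-coding gene. Its highest value stayed below that of the Hnrnpf start peak. The stronger Lsm10 region chr4:126090065-126090785 reached 35.0, 50.2 and 29.0 for LEF1 and 30.5, 24.9 and 12.5 for TCF1, with Oscp1 1410 bp away. At Lsm10, held by LEF1 alone at its ends, the flank was thus marked in all 6 libraries.

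**Figure D5:**
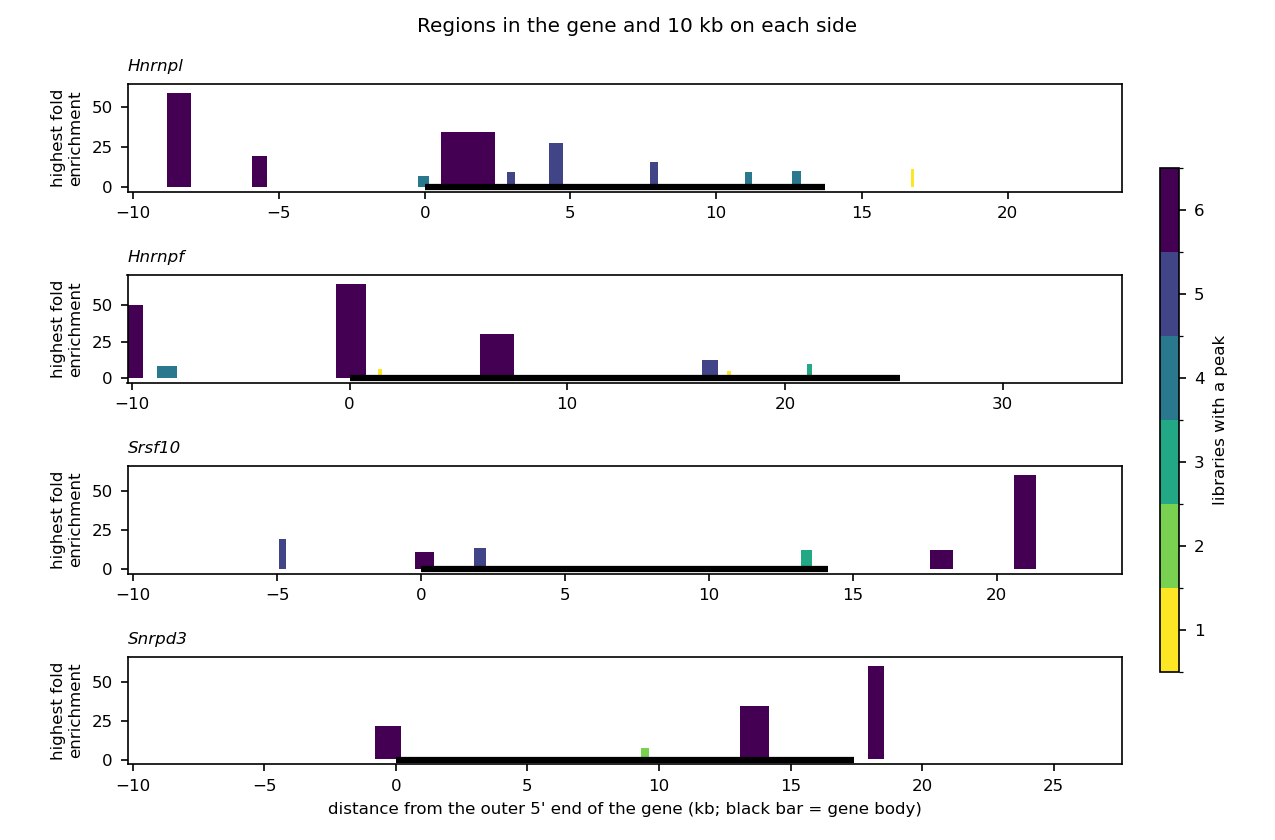
Peak regions in the body and 10 kb on each side of 4 genes with several regions, as distance from the outer 5′ end of the gene (x axis, kb, the black bar is the gene body) and the highest fold enrichment over the 6 libraries (y axis); colour gives the number of libraries with a peak. The Hnrnpl, Srsf10 and Snrpd3 maps have their tallest bar outside the gene body, at up to 58.3, 60.2 and 60.5, and Hnrnpf has its tallest bar at the start, at 64.0.

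Neighbours are close at many of these genes. An end of another protein-coding gene lay within 1 kb of an end at 30 of the 68 (44.1%, against 24.8% of all genes), such as Cbx5 at Hnrnpa1, Cbx3 at Hnrnpa2b1, Rpgrip1 at Hnrnpc, Mettl23 at Srsf2 and Gla at Hnrnph2. Among the 38 members without such a neighbour, 28, 33 and 26 had a gene-end peak in LEF1 replicates 1, 2 and 3 and 32, 32 and 19 in TCF1 replicates 1, 2 and 3. These are 73.7%, 86.8% and 68.4% for LEF1 and 84.2%, 84.2% and, in the shortest list, 19 of 38 for TCF1. Of the genes without such a neighbour in all, 25.5%, 31.3% and 23.4%, and 28.2%, 25.7% and 14.3%, had one.

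The factors were compared by the rank percentile of the strongest gene-end peak at the 36 members, of 4066 genes, with a peak in all 6 libraries. LEF1 ranked higher without overlap at 5 of the 36 (13.9%, against 16.6% of the genes tested) and TCF1 at 1 (2.78%, against 2.66%). Each such gene has an exact two-sided permutation p of 0.1, the smallest that the 20 assignments of 3 and 3 libraries allow, and a Benjamini-Hochberg adjusted p of 0.521. No gene of the 4066 could pass 0.05, before or after adjustment, so no difference between the factors passed the test. The shares among the members were near the background.

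The 5 genes with LEF1 ranked higher were Hnrnph2, Lsm2, Sf3b1, Snrpd3 and Snrpg. At Hnrnph2, another guanine tract binder, the rank percentile was 9.70, 7.39 and 11.2 for LEF1 and 17.0, 13.8 and 53.7 for TCF1. At Sf3b1 it was 28.5, 18.6 and 34.8 for LEF1 and 35.5, 40.1 and 78.0 for TCF1. At Snrpd3 it was 6.10, 3.99 and 6.49 for LEF1 and 7.96, 8.92 and 20.2 for TCF1. In each of these the third TCF1 library was the lowest ranked.

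Hnrnpk, whose protein binds cytosine-rich RNA, was the member with TCF1 ranked higher. Its fold enrichment was 7.68, 10.8 and 7.0 for LEF1 and 16.8, 18.3 and 9.53 for TCF1. Its rank percentile was 70.6, 53.0 and 75.3 for LEF1 and 29.7, 25.6 and 50.1 for TCF1. The TCF1 libraries were thus all ranked above the LEF1 libraries, while by fold enrichment TCF1 replicate 3 fell below LEF1 replicate 2. The region, chr13:58401924-58402968, covers an annotated start of Hnrnpk and overlaps the start of Rmi1.

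List length moved this comparison. With the 11423 strongest peaks of each library, 23 members had a peak in all 6, LEF1 ranked higher without overlap at 4 (background 8.75%) and TCF1 at 8 (background 33.1%). Hnrnph2, Lsm2, Sf3b1 and Snrpd3 were the 4, all of them among the 5 named before. The 8 were Hnrnpa1, Hnrnpa2b1, Hnrnpa3, Hnrnpc, Hnrnpd, Lsm4, Sf3b4 and Snrpc, none of which had been called with the full lists. Gene-end peaks were then at 26, 29 and 30 members for LEF1 (background 15.6%, 15.7% and 16.1%) and at 32, 31 and 37 for TCF1 (background 18.9%, 18.7% and 19.0%). Hnrnpk and Srsf5 had one in all 3 TCF1 and no LEF1 library (background 1.67%), and no member had the reverse pattern (background 0.128%).

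The other genes of the pathway were taken from a list of 107 spliceosome, splicing regulator and snRNP assembly genes outside the 6 prefixes. A gene-end peak was at 73, 89 and 71 of them in LEF1 replicates 1, 2 and 3 (68.2%, 83.2% and 66.4%, against 32.2%, 38.9% and 29.5% of all genes). In TCF1 replicates 1, 2 and 3 it was at 89, 84 and 53 (83.2%, 78.5% and 49.5%, against 35.8%, 32.8% and 19.0%). Both factors held 73 (68.2%, against 29.9% of all genes), and all 6 libraries had a peak at 51 (47.7%, against 18.6%). TCF1 and not LEF1 held 10 (9.35%, against 2.17%), and LEF1 and not TCF1 held 2 (1.87%, against 3.11%). The best ranked was Srrm1, which encodes a coactivator of SR proteins, with 75.1, 104 and 67.0 for LEF1 and 87.3, 78.9 and 39.2 for TCF1. Next came Prmt5, the enzyme that methylates Sm proteins, Bcas2 and Ctnnbl1, both tied to the Prp19 complex, and Ptbp1, the polypyrimidine tract binding protein, with mean rank percentiles of 6.22, 6.54, 6.85 and 6.91. The median of the mean rank percentile over the 92 of them with a gene-end peak was 50.7, the same as over the 61 members with one.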

How the data were processed

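The analysis started from CUT&RUN peak lists, 3 for LEF1 and 3 for TCF1, grouped and numbered by the sample titles. Per the submitters' processing notes, MACS3 3.0.3, Bowtie2 2.4.4, Trim Galore 0.6.6, Picard, deepTools 3.5.1 and FastQC 0.12.1 were used on build GRCm38.p6. How they were set, with which control and with what handling of duplicates, is not given in the sources used here. Fold enrichment as deposited is a ratio per peak, the deposited p and q values are −log10 values (smallest −log10 q 2.0 to 2.06), and the deposited score is an integer. These are the authors' values and served only to rank or filter peaks within a list; ranks from lists of different lengths show no change by themselves.

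Intervals with several summits were counted once, and 11 to 35 rows per list on other sequences were left out. Coordinates are 1-based. Gene positions and promoters came from RefSeq tables of the same build; 59 of the 68 genes have a promoter entry, and exons were not told apart. Regions merge intervals that overlap by at least 1 bp. Python 3.11.15 with numpy 2.4.6, pandas 2.3.3 and scipy 1.17.1 was used, and the code was tested on simulated data. Permutation tests were exact, with Benjamini-Hochberg adjustment over the 4066 genes tested.

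Named with their values were a fixed list of 22 genes, the 3 members per family with the most regions, the 5 best by mean rank, those held by 1 factor only and those with no gene-end peak, 40 in all; Hnrnpa3, Hnrnph2, Hnrnpm, Lsm1, Lsm4, Lsm7, Snrpf and the printed promoters were added with their values known. The members and lists were chosen with earlier results of these data known. Alternatives were another window, a −log10 q of at least 5, lists of equal size, all 3 libraries required, and each library left out.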

Additional observations from a re-analysis of the deposited data

How the results depend on the processing

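Of 175 recomputed counts and summaries 146 kept close to their value and 29 moved; of 503 values of named members 477 kept close and 26 moved, all 26 with lists of equal size. With lists of equal size (LEF1 then TCF1), gene-end counts fell to 28.3 and 33.3 (from 53.0 and 51.0), intervals per member to 0.775 and 0.887 (from 1.83 and 1.47) and genes held to 30 and 32, with 29 held by both and 23 marked in all 6 libraries. The order of the means thus turned, from more LEF1 to more TCF1 gene-end peaks and intervals, though the full-list ranges overlapped. The median rank percentile turned with it (from 39.9 and 45.7 to 63.8 and 52.8). So did the members ranked higher without overlap (from 5 and 1 to 4 and 8). The turn was not particular to these genes. Over all genes the gene-end share was 33.5% and 29.2%, then 15.6% to 16.1% and 18.7% to 19.0%. Intervals per gene were 1.44 and 1.01, then 0.556 to 0.559 and 0.578 to 0.585. LEF1 and TCF1 ranked higher at 16.6% and 2.66%, then at 8.75% and 33.1%. With lists of equal size the LEF1 window count of the members was 39.0, and the LEF1 count of other splicing genes 37.3 (from 77.7). Shorter lists hold fewer peaks by construction. In the gene body alone intervals were 1.13 and 0.971. With a 2 kb gene-end window the LEF1 median rank percentile was 34.9. Leaving out members that share an end gave 29.0 and 27.7, from fewer genes. TCF1 held 37 when all 3 libraries were required. With fold enrichment in place of ranks, LEF1 was higher without overlap at 4 of 36 members (background 11.0%) and TCF1 at 0 (background 0.935%).

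With 1 library of a factor left out, holding a gene took a peak in both of its remaining libraries. TCF1 then held 37 genes without its replicate 1 or 2 and 57 without its replicate 3. LEF1 held 46, 43 and 52 without its replicates 1, 2 and 3. Members with LEF1 ranked higher numbered 5 to 14. They were 8 without LEF1 replicate 1, 9 without LEF1 replicate 3 and 14 without TCF1 replicate 1. Of all genes, 20.6%, 29.6% and 29.7% did so. Members with TCF1 ranked higher numbered 1 to 3. They were 3 without TCF1 replicate 3, against 14.6% of all genes. Without LEF1 replicate 1 or 2 they were 2, against 3.12% and 6.54%. The cause of these moves in rank was not tested. Pairing the libraries by replicate number (replicate block, 3 pairs) gave 9 members with LEF1 higher and 2 with TCF1 higher, against 34.4% and 8.14% of all genes. Same-numbered libraries deviated together with correlations of 0.019, 0.077 and 0.025, and the other pairs gave −0.066 to 0.04. Whether same-numbered libraries share an animal or a day is not in the labels, and these correlations cannot tell.

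With 3 libraries a factor, an unknown read depth and no control list, a missing peak is not an absence of binding, and TCF1 replicate 3, the shortest list, limits each count over all libraries.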

Other observations

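Letters of other promoter motifs were counted in the same 78 member promoters, on both strands, and set beside all 21263 promoters. GGGCGG, the core of the SP family motif, was in 69.2% against 46.2%. ATTGG, the reverse of the CCAAT box, was in 46.2% against 38.2%. TGACGTCA, the cAMP response element, was in 3.85% against 2.23%, in the promoters of Lsm2, Snrpa and Snrpg. AAGATGG, a YY1 core, was in 5.13% against 6.24%, and the NRF1 palindrome was in 1.28% against 1.33%, in the Srsf11 promoter. These shares have no test, and base composition also differs between both sets.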
